A study of Mus musculus with 4 samples.

Results

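The miR-181 family was followed in neurospheres derived from mouse embryonic stem cells (ESCs). Its 4 members, mmu-miR-181a, mmu-miR-181b, mmu-miR-181c and mmu-miR-181d, written without the species prefix from here on, were taken by their names on the array, from 611 mouse miRNAs in all. All 4 were well above background on every array and were among the 153 miRNAs that could be tested. Names beginning with miR-181 also covered the partner strands miR-181a-1* and miR-181a-2*, 6 names together.

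The samples were 4 arrays, with no replicate in any group. Secondary neurospheres (passage 1, day 12 of culture counted from embryoid bodies) gave an array titled NFIA OE, for overexpression of the transcription factor NFIA, and an array titled control. Primary neurospheres (passage 0, day 6) gave the same pair of titles. NFIA is known for its part in the onset of astrocyte formation from neural progenitors. Both kinds of cell grew together in mixed spheres and were sorted apart by fluorescence, so the arrays of a passage share a culture. The source names contradict the titles at both passages, calling the cells titled control the NFIA OE line and those titled NFIA OE WT. If the source names are right, every title difference below turns its sign, whereas the passage differences do not. How NFIA was overexpressed, and from how many clones the lines came, is not given in the labels.

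A miRNA is cut from a hairpin precursor that can yield a mature strand from each arm. It finds its target mRNAs mainly through the seed, bases 2 to 8 from the 5′ end, so that members with a common seed can share targets. The miR-181 family is best known from lymphocytes, where miR-181a sets the sensitivity of the T cell receptor, and its members are also expressed in brain, in neurons and astrocytes.

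The mature sequences show what the members share and how close the probes' targets are. RefSeq's table for GRCm38.p6 matched all 6 array names, the members to the 5′ arm and the starred strands to the 3′ arm. Capitals mark the seed.
miR-181a: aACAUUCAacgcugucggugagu
miR-181b: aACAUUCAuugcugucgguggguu
miR-181c: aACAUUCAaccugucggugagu
miR-181d: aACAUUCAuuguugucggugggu
miR-181a-1*: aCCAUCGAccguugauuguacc
miR-181a-2*: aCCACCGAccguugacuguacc

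All 4 members have the seed ACAUUCA and are identical over at least their first 8 bases, while the starred strands have other seeds, 1 each. miR-181c is miR-181a without the base at position 11, counted from the 5′ end. miR-181d differs from miR-181b by C12U and by lacking the last base. miR-181a and miR-181b differ by A9U, C10U and A21G, and miR-181b has 1 more base. With edit distances of 1 to 5 between members, a probe for one may also bind another. How far the array's probes do so was not tested.

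The members come from 6 hairpin genes in 3 pairs. Mir181a-1 (chromosome 1, 137966455 to 137966541) and Mir181b-1 (137966639 to 137966718) lie 97 bases apart, overlap no other gene of the RefSeq table (GRCm38.p6), and have Ptprc as the nearest protein-coding gene. Mir181a-2 (chromosome 2, 38852735 to 38852810) and Mir181b-2 (38853830 to 38853918) lie 1019 bases apart within the bounds of Nr6a1 and Nr6a1os. Mir181d (chromosome 8, 84178716 to 84178787) and Mir181c (84178873 to 84178961) lie 85 bases apart, overlap no other gene of the table, and have Nanos3 nearest. Mature miR-181a and miR-181b are thus each encoded at both of the first pairs, and the array reads the sum of both loci.

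Among probes detected everywhere, the 75th percentile was 261 to 443 units of intensity on the other arrays and 167 on the weakest, the primary control-titled one. Levels below are log2 intensities relative to that percentile of each array, so a level depends on this scaling and cannot be set against another miRNA's. Neural markers were well above background on every array (4 of 4 each, among them miR-9 and miR-124). Of 11 miRNAs of pluripotent cells, 7 and 1 were detected on the secondary arrays titled NFIA OE and control, and 10 and 10 on the primary ones. Their summed signal was 0.588 and 0.260 times the 75th percentile on the secondary arrays and 5.60 and 6.71 times on the primary ones. Of 7 blood cell miRNAs, miR-155 was detected on both primary arrays and the other 6 on none (0). Of 12 endothelial, muscle and mesenchymal markers on the array, 4 and 2 were detected at each passage on the arrays titled NFIA OE and control.

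miR-181a stood at -0.93 on the secondary array titled NFIA OE, at -1.09 on the secondary array titled control, at -1.27 on the primary array titled NFIA OE and at -2.33 on the primary array titled control. The first 3 lay within 0.35 of each other, close to the pooled residual SD of 0.29, and the primary array titled control lay 1.06 below the nearest of them. These levels come from probe A_54_P1123, whose unscaled intensity was 194 ± 11.2, 209 ± 11.0, 108 ± 6.45 and 33.3 ± 2.59 on the same arrays (SD over 10 spots each, technical error only).

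miR-181b had levels of -1.31, -1.34 and -1.27 on the secondary NFIA OE-titled, secondary control-titled and primary NFIA OE-titled arrays, and -1.89 on the primary array titled control. As for miR-181a, the first 3 were nearly level with this scaling and the primary control-titled array was lowest. With other scalings the primary array titled NFIA OE was not level with the secondary one. The secondary array was then higher by 0.66 for miR-181b and 1.04 for miR-181a with median centring. With the authors' processed values these were 0.60 and 1.01. miR-181c showed little spread as scaled, at -2.81, -2.67, -2.76 and -2.74 in that order of arrays, a range smaller than the residual SD. This too depends on the processing. With quantile normalization miR-181c was higher on the secondary array by 0.52 in the pair titled NFIA OE and 0.64 in the pair titled control. With normexp the pair titled control gave -0.55.

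miR-181d had the opposite order to miR-181a, at -2.60 on the secondary array titled NFIA OE, -2.46 on the secondary array titled control, -2.30 on the primary array titled NFIA OE and -1.90 on the primary array titled control. Neighbouring arrays in that order differed by at most 0.40. Without scaling its order is different: probe A_54_P2983 read 108 ± 6.68, 141 ± 6.20, 93.7 ± 5.04 and 83.7 ± 4.75 units (SD over 9 or 10 spots), lowest on the primary array titled control. The order depends on the scaling: miR-181d was again highest on the primary array titled control with median centring and quantile normalization, where its title difference in the primary pair was -0.69 and -0.55 (-0.40 as reported). It was not when all probes set the percentile or in the processed table of the authors, where the passage difference in the pair titled control was 0.37 and 0.021.

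**Figure D1:**
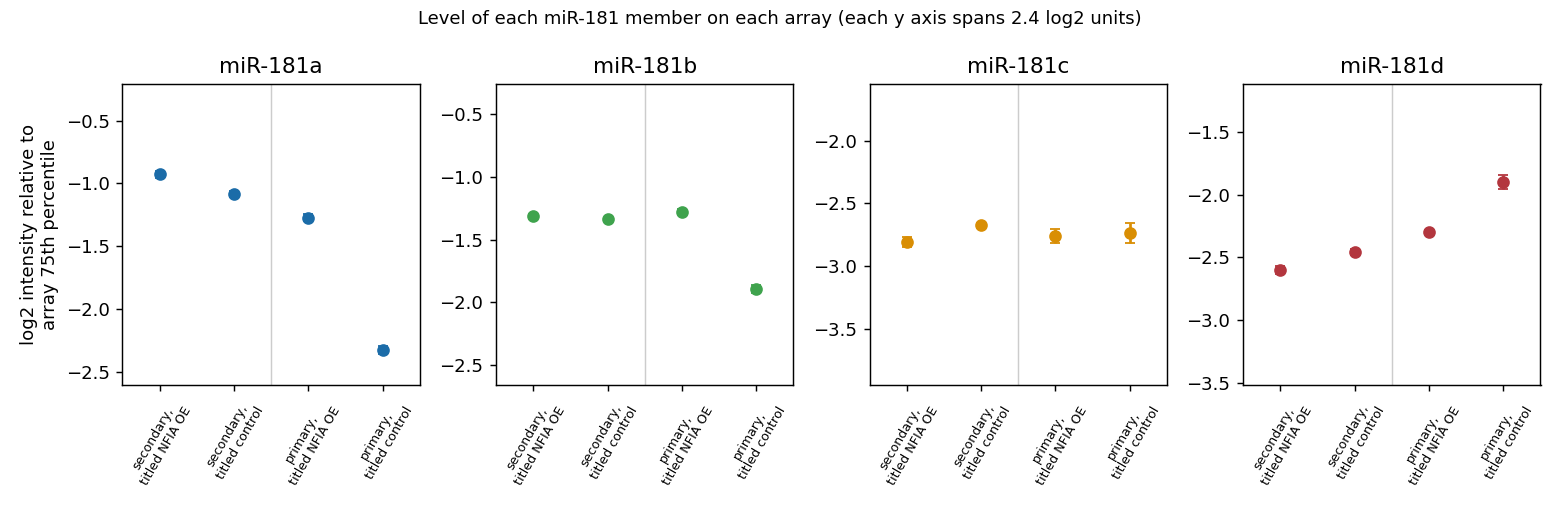
Level of each miR-181 member (log2 intensity relative to the array's 75th percentile) on each array, with bars for the SE over spots; each panel spans the same log2 width around its own mean. miR-181a and miR-181b are lowest, at -2.33 and -1.89, and miR-181d is highest, at -1.90, on the primary array titled control.

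Each member is read by 2 probes, and 2 of the 4 members had both detected on every array. For miR-181b these were A_54_P2650 and A_54_P2651, whose title differences in the primary pair were 0.62 and 0.62, with SE over spots of 0.060 and 0.046. For miR-181d, A_54_P2982 and A_54_P2983 gave -0.33 and -0.48 there (SE over spots 0.11 and 0.037). The second probe of miR-181a, A_54_P1122, was at 40.2, 41.5, 21.5 and 3.95 units on the secondary NFIA OE-titled, secondary control-titled, primary NFIA OE-titled and primary control-titled arrays, and none of its 10 spots was well above background on the last (0). The second probe of miR-181c, A_54_P1485, was detected on the secondary array titled control alone. A pair of probes with the same sign and size shows technical repeatability only.

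**Figure D2:**
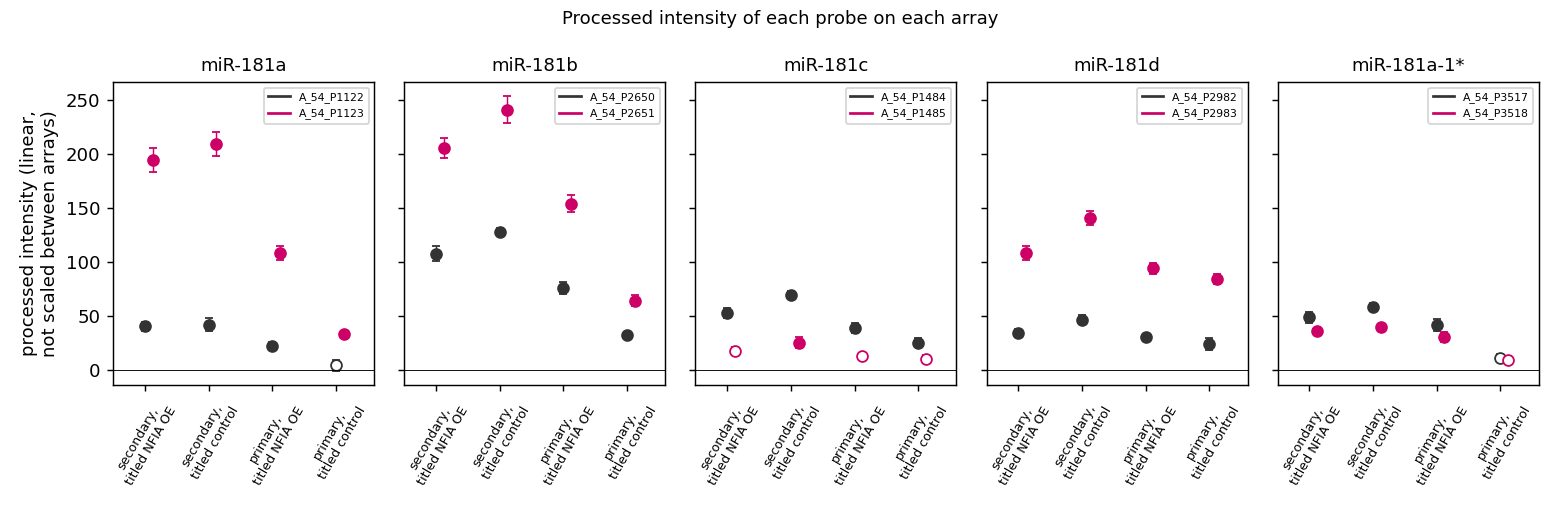
Processed intensity (linear, unscaled) of each probe of the members and of miR-181a-1*, mean with SD over spots; filled points are probes detected on that array, open points are not. Both probes of miR-181a-1* and 1 of miR-181a are open on the primary array titled control, where A_54_P1123 reads 33.3 against 108 units on the primary array titled NFIA OE.

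The partner strand miR-181a-1*, cut from Mir181a-1 alone, was well above background on 3 arrays. Its probe A_54_P3517 read 48.4 and 58.2 units on the secondary arrays titled NFIA OE and control, and 41.0 and 10.6 units on the primary ones, where the last was not well above background. Among the primary arrays it was at least 1.48-fold higher under the NFIA OE title than under the control title. Among the arrays titled control it was at least 1.24-fold higher in the secondary than in the primary spheres. The pair titled NFIA OE went the other way as scaled, with the secondary array at 0.84-fold of the primary one (log2 difference -0.26, SE over spots 0.078), and at 0.83-fold by the second probe (-0.27). That sign depends on the scaling. Unscaled, the secondary array of this pair was the brighter one, at 48.4 against 41.0 and, by the second probe, 35.5 against 30.3 units. The authors' processed values were 1.80 and 1.37 there. The bounds, also as scaled, set the brighter level against the lowest signal of any detected probe on the dim array. The second probe, A_54_P3518, gave a bound of 1.10-fold for the first of these and none for the second. Between the secondary arrays A_54_P3517 had a log2 difference of -0.00014, within its SE over spots of 0.056. miR-181a-2*, from the other miR-181a hairpin, was well above background on 0 of 4 arrays.

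The title comparison asked whether the members differ with NFIA overexpression. None did by the test (0 of 4 called, against 2.61% of the 153 miRNAs tested), in a limma fit with title and passage as terms and Benjamini-Hochberg adjustment over all 153. miR-181a had 1.52-fold more signal under the NFIA OE title than under the control title (log2 difference 0.61, SE 0.29, limma unadjusted p = 0.0416, adjusted p = 0.398). At an unadjusted p under 0.05 it was 1 of 4 members, and 16 of all 153 miRNAs (10.5%) passed that level. miR-181b differed by 0.32, miR-181c by -0.078 and miR-181d by -0.27 (limma adjusted p = 0.890 to 0.931). The 95% intervals of the fit ran from 0.023 to 1.19 for miR-181a, -0.26 to 0.90 for miR-181b, -0.66 to 0.50 for miR-181c and -0.86 to 0.31 for miR-181d. Over the 4 members the median was 0.12, beside -0.0022 over all 153. The summed signal of the 12 endothelial, muscle and mesenchymal markers differed with title. It was 2.05 and 1.93 times the 75th percentile on the secondary and primary arrays titled NFIA OE. On those titled control it was 0.403 and 0.591 times. Of the 12, 8 were detected on no array, the endothelial miR-126-3p and the muscle miR-1 and miR-133a among them. No title difference was shown for those 8. From this list 2 miRNAs were tested, miR-199a-3p and miR-199b*. Limma called both higher under the NFIA OE title (adjusted p = 1.38e-08 and 1.84e-08). They were 2 of the 4 miRNAs called by title among all 153. The part of the detected markers in the members' title values was not tested.

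As reported, the title differences of miR-181a and miR-181b were larger in the primary than in the secondary pair. miR-181a differed by 0.16 in the secondary pair and by 1.06 (2.08-fold) in the primary pair. It was the 1 member at least 2-fold apart in the primary pair, where 9.15% of miRNAs were. It was less than 2-fold apart there with median centring (0.77), with normexp (0.34) and with either wider filter (0.35), where the secondary pair gave 0.30, 0.15 and 0.19. The wider-filter value of 0.35 includes a floor value for A_54_P1122 on the primary array titled control, where that probe was not detected. Without scaling the primary pair gave 1.70 for miR-181a and 1.26 for miR-181b, and with normexp miR-181b had 0.17. In the secondary pair no member was 2-fold apart (0 of 4, against 2.61%). miR-181b differed by 0.025 in the secondary and 0.62 in the primary pair, miR-181c by -0.13 and -0.024, and miR-181d by -0.14 and -0.40. As reported each member had the same sign in both pairs, but a pair has no replicate and whether the pairs differ was not tested. In the secondary pair miR-181a and miR-181b turned to -0.11 and -0.24 without scaling and to -0.13 and -0.26 when all probes set the percentile, and miR-181b also to -0.093 with the authors' processed values. Signs also differed between the pairs for miR-181c with normexp (0.043 in the secondary and -0.27 in the primary pair), median centring (0.0092 and -0.31), all probes setting the percentile (-0.42 and 0.040) and no scaling (-0.40 and 0.62). For miR-181d they did with normexp (0.0077 and -0.42) and no scaling (-0.41 and 0.24).

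Between secondary and primary neurospheres, the passage comparison, 1 member was called in the reported fit. miR-181a was 1.73-fold higher at passage 1 than at passage 0 (log2 difference 0.79, SE 0.29, 95% interval 0.21 to 1.38, limma adjusted p = 0.0198). It was the 1 member called higher of 4, where 13.1% of all 153 miRNAs were called higher and 32.7% lower. That split depends on the scaling: the reported setting called 20 miRNAs higher and 50 lower, and median centring 0 in either direction. Quantile normalization called 21 higher and 30 lower, scaling by all probes 25 higher and 5 lower, unscaled values 20 higher and 1 lower, and the processed table of the authors 39 higher and 17 lower. miR-181b (0.26, adjusted p = 0.495), miR-181c (0.0096, adjusted p = 0.974) and miR-181d (-0.43, adjusted p = 0.228) were not called by limma. The arrays of a passage share a culture, so these p-values do not measure the spread between cultures. They rest on the residual SD of 0.29 pooled over all 153 miRNAs. For miR-181a the title difference of the secondary pair minus that of the primary pair was -0.90, and this interaction falls into the residual. Passage and days in culture cannot be told apart.

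The miR-181a difference was 0.35 (1.27-fold) in the pair titled NFIA OE and 1.24 (2.37-fold) in the pair titled control. At least 2-fold apart were 0 of 4 members in the pair titled NFIA OE, where 21.6% of miRNAs were, and 1 of 4, miR-181a, in the pair titled control, where 37.3% were. Over 10 alternatives the miR-181a difference ran from 0.18 to 1.04 in the pair titled NFIA OE, and was past 2-fold with median centring (1.04) and the authors' processed values (1.01). In the pair titled control it ran from 0.37 with normexp to 2.65 without scaling, and was less than 2-fold with normexp and either wider filter (0.53). Without either array titled NFIA OE the difference was thus 1.24, and without either array titled control 0.35, both without a test. The miR-181a call by limma ended with normexp background correction (0.28, adjusted p = 0.276), with median centring (1.27, adjusted p = 0.0813) and without the title term (0.79, adjusted p = 0.0815). It also ended with miRNAs detected on at least 1 array (0.45, adjusted p = 0.179) or no filter (0.45, adjusted p = 0.266). Both of these used a floor value for A_54_P1122 on the primary array titled control. The sign of the miR-181a difference was positive in all 11 alternatives tested by limma. The pluripotency miRNAs that were brighter on the primary arrays moved with the same comparison, and their part in this result was not tested.

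The median miRNA stood at -0.39 between passages, and at 0.56 without scaling. Relative to it miR-181a was at 1.18, miR-181b at 0.65, miR-181c at 0.40 and miR-181d at -0.040. The sign of miR-181d depends on the scaling: it was 0.32 with the percentile over all probes, 0.52 without scaling, 0.19 with the authors' processed values, 0.050 with median centring and 0.035 with quantile normalization. In the pair titled NFIA OE miR-181b differed by -0.038, miR-181c by -0.045 and miR-181d by -0.30, and in the pair titled control by 0.56, 0.064 and -0.56. The members' median was 0.13, beside -0.39 over all 153.

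**Figure D3:**
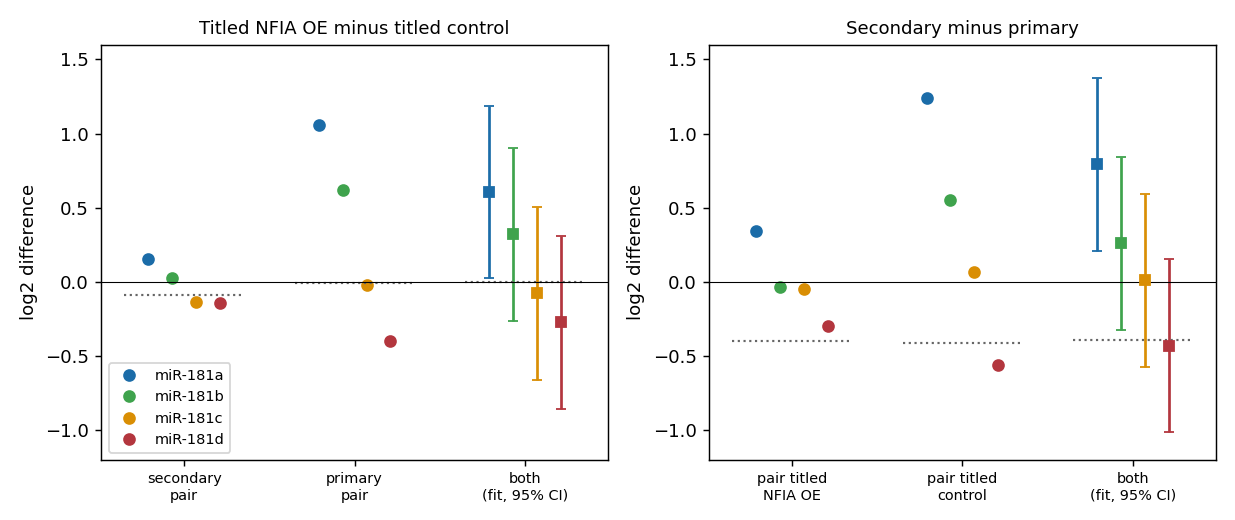
Log2 differences of the members, titled NFIA OE minus titled control (left) and secondary minus primary (right), in each single pair of arrays (circles, no replicate) and in the fit over both pairs (squares, bars for the 95% interval); dotted lines mark the median of all 153 miRNAs. miR-181a differs with title by 0.16 in secondary and 1.06 in primary spheres, and its passage interval, 0.21 to 1.38, lies above 0.

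A constant scaling factor per array cancels in the change of one member relative to another. Relative to miR-181d, miR-181a was 1.84-fold higher by title (log2 0.88, at 0.30 in secondary and 1.46 in primary spheres). By passage it was 2.34-fold higher relative to miR-181d (log2 1.22, at 0.65 in the pair titled NFIA OE and 1.80 in the pair titled control). Settings that do more than rescale an array by a constant moved the passage value of miR-181a relative to miR-181d over 0.83 to 1.30, and the title value over 0.45 to 1.03. The passage differences ran in the order miR-181a, miR-181b, miR-181c, miR-181d from the highest. By title the order was the same as reported, and miR-181b lay above miR-181a with the wider filters, which also used the dim second probe of miR-181a. On the primary array titled control these filters raised that probe from -5.40 to a floor of -3.24. This lies above its level of -3.60 on the primary array titled NFIA OE. Next to each other in this order, the members differed by 0.54, 0.25 and 0.44 by passage, which has no test. miR-181a and miR-181b are the pair encoded together on chromosomes 1 and 2, and miR-181c and miR-181d the pair on chromosome 8. By sequence miR-181a is nearest to miR-181c (edit distance 1) and miR-181b to miR-181d (edit distance 2). The title differences of miR-181a and miR-181c were 0.29 apart in the secondary and 1.08 apart in the primary pair, and those of miR-181b and miR-181d 0.17 and 1.02 apart.

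**Figure D4:**
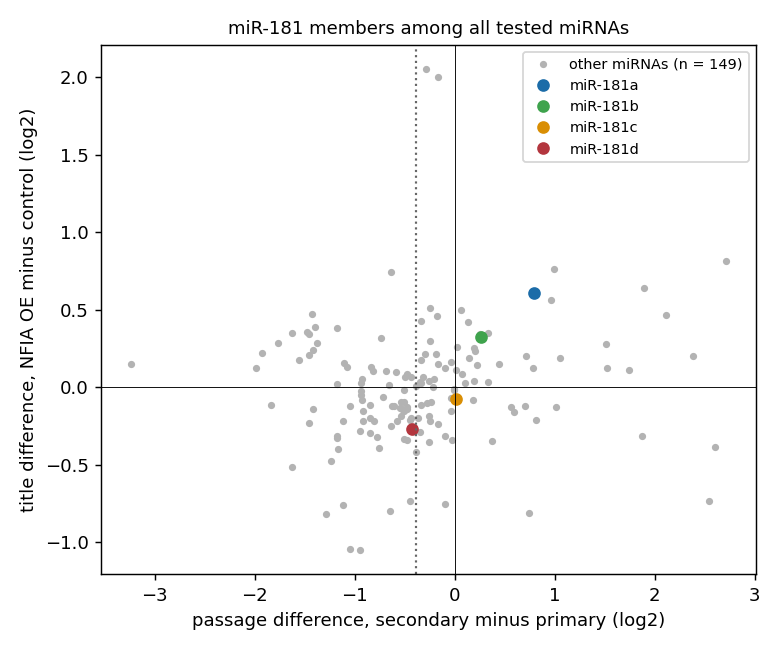
Passage difference (x, secondary minus primary, log2) against title difference (y, NFIA OE minus control titles, log2) for the 153 tested miRNAs, with the 4 members in colour and the median passage difference of -0.39 dotted. The members run from miR-181d at -0.43 and -0.27 to miR-181a at 0.79 and 0.61; both axes use the same 4 arrays and share their error.

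Profiles over the 4 arrays were compared by Euclidean distance after centring each miRNA on its mean, as a description over 4 points that share the arrays. Among non-members miR-181a lay nearest to miR-100 (0.246), miR-322 (0.354) and miR-125b-5p (0.417). miR-100 stood at -0.28, -0.23, -0.63 and -1.81 on the secondary NFIA OE-titled, secondary control-titled, primary NFIA OE-titled and primary control-titled arrays. miR-181b was nearest to miR-148a (0.0642), let-7e (0.0811) and miR-193b (0.163). miR-181c was nearest to miR-33 (0.0515), miR-500 (0.0897) and miR-30b (0.112). miR-181d was nearest to miR-872 (0.105), miR-340-3p (0.114) and miR-130a (0.134). No member had another member as its nearest profile: miR-181b ranked 8 of 152 for miR-181a, and miR-181d ranked 83.

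Among 21 other miRNAs studied in neural and glial cells, 17 were tested. By title 0 of the 17 were called, beside 2.61% of all 153 miRNAs (median 0.13, range -0.82 to 0.51), and 3 of them had an unadjusted limma p under 0.05, beside 10.5%. By passage limma called 5 of the 17 higher and 2 lower, beside 13.1% and 32.7% of all 153 (median -0.18). Those higher were miR-9* (2.60) and miR-9 (1.87), abundant in neural progenitors, miR-27a (1.05) and miR-23a (0.78), which share a cluster, and miR-125b-5p (0.71). Those lower were the neuronal miR-124 (-1.28) and miR-34a (-1.08). The passage difference of miR-181a, 0.79, was close to that of miR-23a. It was larger in the pair titled control, as were those of all 5 miRNAs of this list called higher.

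**Figure D5:**
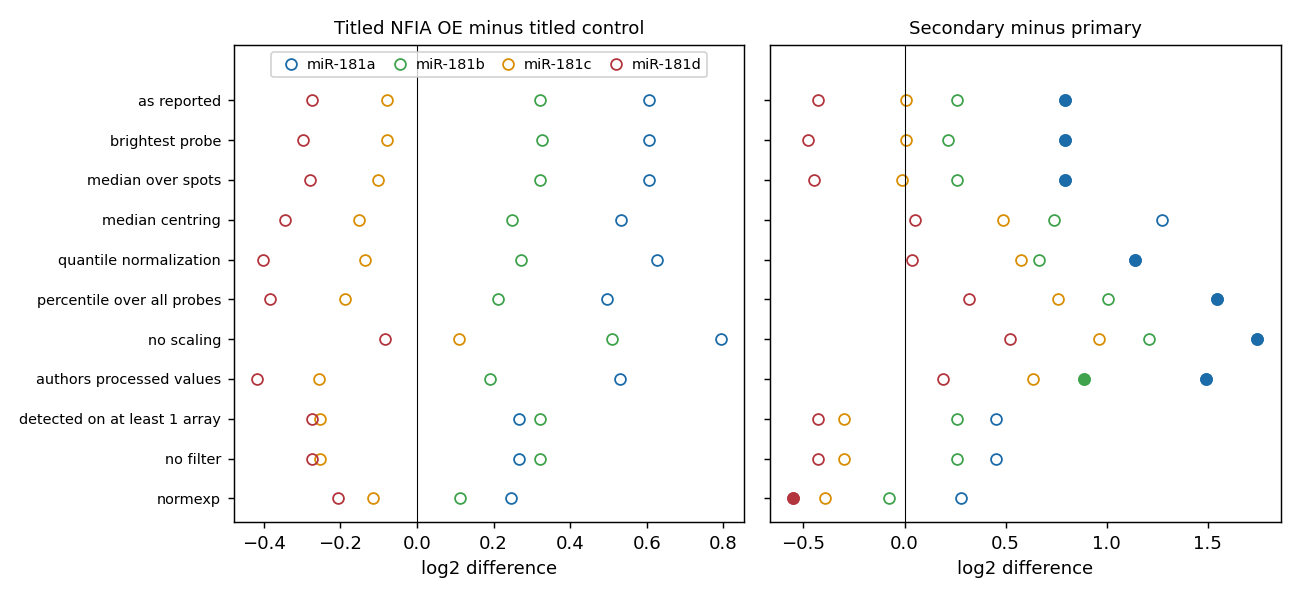
Log2 difference of each member by title (left) and by passage (right) under each processing setting; filled points are called by limma at an adjusted p under 0.05. By title no point is filled, and by passage miR-181a is the highest member in every row, from 0.28 with normexp to 1.75 without scaling, while miR-181d lies on both sides of 0.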

How the data were processed

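Small-RNA-containing total RNA of 4 samples was hybridised to 1 one-colour (Cy3) Agilent mouse miRNA array each, on 1 slide. The authors' scanner files, extracted with Feature Extraction 10.5.1.1, hold spot intensity on a linear scale, per the file headers with spatial detrending and background subtraction but no scaling between arrays. The authors' table of processed intensities was, for each miRNA, the total gene signal of the scanner file over a constant of that array (31.0, 33.7, 34.1 and 20.3 for the secondary NFIA OE-titled, secondary control-titled, primary NFIA OE-titled and primary control-titled arrays), linear and uncentred, with column medians of 0.816, 0.700, 0.830 and 0.882. The basis of those constants is not stated.

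Of 13000 non-control spots per array 0 were saturated. Flagged spots were left out and the rest averaged per probe. Detection of a probe required the flag for signal well above background on 50% of its spots or more. Arrays were divided by the 75th percentile of the 252 probes that every array detected, then put on the log2 scale, and a miRNA took the mean of those probes. limma 3.58.1 in R 4.3.3 fitted title and passage over the 153 miRNAs, with 1 residual degree of freedom and, as the prior was infinite, a pooled residual SD of 0.29. An interaction of title with passage falls into that residual. Calls took a Benjamini-Hochberg adjusted p under 0.05. The fit was also run on simulated arrays with independent noise at that pooled SD and planted title differences. Such arrays cannot show how it behaves with interactions, a shared culture or passage differences. The number of arrays limits the precision.

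Members and lists were chosen with earlier results of these data known. Named miRNAs were the members, their partner strands, the 3 non-members nearest in profile to each, called miRNAs of a neural and glial list, and examples from the marker lists. Position on the slide is confounded with title and passage. Alternatives changed the background correction, scaling, filter, probes, spots and covariates. The wider filters set any signal below it to a floor, the lowest signal of a detected probe on that array.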

Additional observations from a re-analysis of the deposited data

Results flagged for a closer look

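The passage difference had opposite signs in the pairs of arrays for 2 members, miR-181b and miR-181c. miR-181b differed by -0.038 in the pair titled NFIA OE and 0.56 in the pair titled control, and miR-181c by -0.045 and 0.064. Both signs were positive for both members when all probes set the percentile, with median centring, with quantile normalization, without scaling and with the authors' processed values, where the pair titled NFIA OE gave 0.39 to 0.66 for miR-181b and 0.45 to 0.65 for miR-181c. With normexp both signs were negative for both members. Each pair is 1 array against 1, so the difference between pairs was not tested, and the miR-181c values and the negative miR-181b value are smaller than the residual SD of 0.29.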

How the results depend on the processing

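By title, 0 members were called in the reported fit and in each of 11 alternatives tested by limma, and miR-181a, miR-181b and miR-181d kept their signs (0.24 to 0.79, 0.11 to 0.51 and -0.42 to -0.085), while miR-181c turned to 0.11 without scaling. By passage miR-181a was called in 6 of 11, from 0.28 to 1.75 in all (adjusted p from 9.52e-06 to 0.276), and was not with normexp (0.28), median centring (1.27), detection on at least 1 array (0.45), no filter (0.45) or passage alone (0.79). miR-181b was -0.077 with normexp and was called with the authors' processed values (0.89, adjusted p = 0.0125). miR-181c turned to -0.40 with normexp, -0.30 with detection on at least 1 array and with no filter, and -0.014 with the median over spots. The -0.30 includes floor values for its second probe. miR-181d was called lower by limma with normexp (-0.55, adjusted p = 0.0336). In that setting 47.7% of all 153 miRNAs were called lower, and the median miRNA stood at -0.49. miR-181d turned to 0.32 with the percentile over all probes, 0.050 with median centring, 0.035 with quantile normalization, 0.52 without scaling and 0.19 with the authors' processed values.

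The number called by passage was 1 as reported, 0 with median centring, both wider filters and passage alone, 1 with normexp (miR-181d, not miR-181a), and 2 with the authors' processed values. Of all 153 miRNAs, normexp called 9.15% higher and 47.7% lower, passage alone 10.5% and 29.4%, and the authors' processed values 25.5% and 11.1%. Detection on at least 1 array called 7.54% of 252 miRNAs higher and 35.3% lower, and no filter 2.15% and 6.31% of 650. Median centring called 0 in either direction. The members' median passage difference was 0.13 as reported, -0.24 with normexp, 0.88 with the percentile over all probes, 0.61 with median centring, 0.62 with quantile normalization, 1.09 without scaling and 0.76 with the authors' processed values. Relative to the median miRNA, an alternative chosen after seeing the data, the passage differences were 1.18, 0.65, 0.40 and -0.040 for miR-181a, miR-181b, miR-181c and miR-181d. The wider filters brought in the dim second probe of miR-181a and of miR-181c. They raised a dimmer signal to a floor. For the second probe of miR-181c, -4.42 became -4.27 on the secondary array titled NFIA OE. On the primary arrays titled NFIA OE and control, -4.35 and -4.12 became -3.97 and -3.24. The wider-filter values of both members thus rest partly on the floor. The causes of the other changes were not tested.

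Leaving out 1 array at a time leaves a single pair with no test. The title difference then ranged from 0.16 to 1.06 for miR-181a and 0.025 to 0.62 for miR-181b, and the passage difference from 0.35 to 1.24 and from -0.038 to 0.56. With passage as a term, the title difference of the reported fit compares the titles within each shared culture. The passage difference compares the arrays of one passage with those of the other. With 1 array per group no other pairing was possible. With title alone limma called 0 members. Signal over background limits the second probes of miR-181a and miR-181c, which were not detected on every array.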
